A study of Mus musculus with 2 samples.

Results

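The 10 genes described here encode annexins 1 to 7 (Anxa1, Anxa2, Anxa3, Anxa4, Anxa5, Anxa6 and Anxa7) and the S100 proteins S100a6, S100a10 and S100a11. They were chosen by gene name from these families of calcium-binding proteins, with earlier results of these data known. All 10 of them were found among the 35275 genes of the count table. The study used AML12 cells, a non-transformed hepatocyte line that was derived from the liver of a mouse transgenic for human TGF-alpha, as a culture model of hepatic senescence. Senescent AML12 cells went through 6 daily exposures to H2O2 of 1 h each, the first with 1 mM and the later ones with 0.75 mM, and recovered for 23 h in complete medium after each of them, whereas control AML12 cells received no H2O2. RNAseq of poly(A) RNA was done on 1 library per group, and each library was made from RNA of 3 pooled samples. The labels call the groups young and old, although the stated difference between them is the peroxide treatment.

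The complete medium of both groups contained serum, insulin, transferrin, selenium and dexamethasone, and dexamethasone is a glucocorticoid. The H2O2 exposures of the senescent group took place in serum-free medium. Whether control cells had matching hours without serum is not given in the sources used here. The control library held 28021941 counted reads and the senescent library 25738075. With 1 library per group there is no replicate check and no p-value, so each ratio compares 2 libraries and not 2 conditions, and treatment and library cannot be told apart. Intervals are 95% exact binomial (Clopper-Pearson) intervals. They cover counting error only, since these are PCR reads without molecular identifiers.

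Annexins bind negatively charged phospholipids when calcium is raised, and they gather on the inner face of the plasma membrane, where they take part in vesicle traffic, anchorage of the actin cortex and the sealing of membrane wounds. S100 proteins are small dimers with EF-hand calcium sites, and several of them grip the N-terminal tail of an annexin. In the liver, annexins occur in hepatocytes and in bile duct cells, and the calcium signals that recruit them accompany hormone action and oxidative injury.

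Compared to control AML12 cells, the senescent cells had more reads of S100a10 and fewer of Anxa6, and these were the members that passed a 2-fold difference. S100a10 rose from 12920 reads to 23945 reads, a 2.17-fold difference after scaling. Anxa6 fell from 1761 reads to 446 reads and was 3.36-fold lower in the senescent library. Just below 2-fold stood Anxa2, the membrane partner of S100a10, at 1.94-fold and S100a6 at 1.82-fold. In RNA of a whole culture, fewer cells that express a gene and less of its RNA per cell cannot be told apart.

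Ratios are senescent over control on the log2 scale, after trimmed mean (TMM) scaling, and a gene was called when its ratio passed a threshold and its interval did not hold 0. At the threshold of 1.5 used in the study, 0 members were higher and 1 was lower (Anxa6). Of the 14383 genes with at least 10 reads over both libraries, 2.71% were higher and 5.60% lower by that rule, and of the 7804 genes with at least 1000 reads, 0.871% were higher and 1.70% lower. At a threshold of 1, 1 member was higher (S100a10) and 1 was lower (Anxa6). The shares of all genes tested were then 5.09% higher and 9.98% lower, and among genes with at least 1000 reads they were 2.97% and 4.15%. These counts of 0 and 1 among 10 genes lie too close to such shares to set the members apart from other genes.

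The median log2 ratio of the 10 members was 0.38, beside -0.02 over all genes tested and 0.08 over genes with at least 1000 reads. The interval lay above 0 for 7 members, below 0 for 2 members (Anxa5 and Anxa6) and held 0 for Anxa4, whose sign changed to negative with total counts, DESeq2 size factors or the upper quartile as scaling. With intervals widened for a biological coefficient of variation of 0.1, 5 lay above 0 and 1 below, and at 0.4, 0 lay above and 1 (Anxa6) below, so that the call of S100a10 past 1 was lost at 0.4. Scaling to total counts lowered the median of all genes by a shift of -0.11. The median of the members lay 0.40 above that of all genes, a gap that scaling cannot test because it moves all ratios nearly alike. The S100 members had a median of 0.87 and the annexin members a median of 0.13, and S100a11 at 0.34 lay below Anxa2, Anxa7 and Anxa1.

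**Figure D1:**
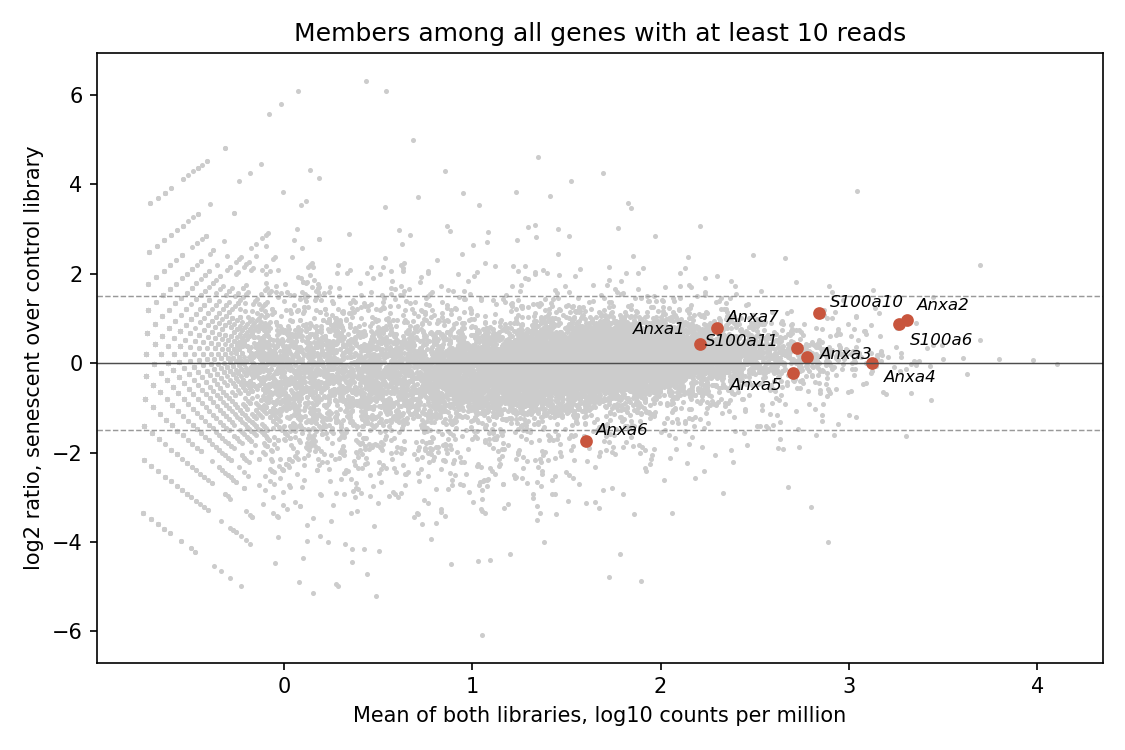
Each point is a gene with at least 10 reads, placed by the log10 of its mean reads per 1000000 counted reads (CPM) over the control and senescent libraries (horizontal) and by its log2 ratio of senescent over control after TMM scaling (vertical), and the 10 members are named. The members lie toward the abundant end of the axis, S100a10 at 1.12 is the uppermost of them, Anxa6 at -1.75 the lowest, and Anxa4 lies at 0.00 with a sign that changes under the other scalings.

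The first pair by role is Anxa2 and S100a10, which bind each other in a complex of a pair of annexin chains and an S100 dimer at the plasma membrane. Anxa2 (ENSMUSG00000032231) lies at chr9:69453620-69491795 on the plus strand of GRCm38 and had 40482 reads in the control library against 67065 in the senescent library. Its log2 ratio was 0.96 with an interval of 0.94 to 0.98, and 93.7% of the genes tested had a lower ratio. In share of counted reads, Anxa2 took 0.144% (interval 0.143% to 0.146%) of the control library and 0.261% (0.259% to 0.263%) of the senescent library. Of the members, Anxa2 thus had the most reads in both libraries.

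S100a10 (ENSMUSG00000041959, chr3:93555080-93564643, plus strand), also called p11, is the family member that has lost calcium binding and holds the annexin chain without it. Its log2 ratio of 1.12 had an interval of 1.09 to 1.15, and 95.1% of the genes tested had a lower ratio. Under scaling to total counts the ratio was 1.01 with an interval of 0.98 to 1.04, which places S100a10 at the 2-fold line. Per Anxa2 read there were 0.319 S100a10 reads in the control library (interval 0.313 to 0.326) against 0.357 in the senescent library (0.352 to 0.362). That ratio within a library does not depend on scaling, and it was higher in the senescent library by 0.16 on the log2 scale (0.13 to 0.20). The RNAs of both partners were therefore more abundant in the senescent library, with a small excess for S100a10.

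S100a6 and S100a11 are the other S100 members. S100a6 (ENSMUSG00000001025, chr3:90612882-90624181, plus strand), or calcyclin, binds Anxa2, Anxa11 and the calcyclin-binding protein Cacybp, and is known from growing cells and epithelia. It had 38613 reads in the control library against 60019 in the senescent library, which gave a log2 ratio of 0.87 with an interval of 0.85 to 0.88. S100a6 reads per Anxa2 read were 0.954 in the control library against 0.895 in the senescent library, a log2 change of -0.09 (-0.12 to -0.07). The balance of S100a6 to Anxa2 thus lay slightly lower in the senescent library. Per S100a10 read, there were 2.99 S100a6 reads in the control library against 2.51 in the senescent library.

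S100a11 (ENSMUSG00000027907, chr3:93520488-93526287, plus strand), or calgizzarin, binds the tail of Anxa1 and also takes part with annexins in plasma membrane repair. It had 13570 reads in the control library against 14685 in the senescent library, which gave a log2 ratio of 0.34 with an interval of 0.31 to 0.38. Per S100a10 read there were 1.05 S100a11 reads in the control library (1.03 to 1.08) against 0.613 in the senescent library (0.601 to 0.626). S100a11 and S100a10 lie beside each other on chromosome 3, and their balance differed most among the pairs of S100 members, by -0.78 on the log2 scale. S100a11 has near-identical copies elsewhere in the genome: Gm12854 matches it at 99.0% over 297 bases and had 15 and 20 reads, and Gm7665 matches at 98.7% over the same length and had 6 and 19 reads.

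Anxa1 (ENSMUSG00000024659, chr19:20373428-20390944, minus strand) is the partner of S100a11 and, once secreted, an anti-inflammatory ligand of formyl peptide receptors whose synthesis is raised by glucocorticoids. It had 4031 reads in the control library against 4603 in the senescent library, which gave a log2 ratio of 0.42 with an interval of 0.36 to 0.48. S100a11 reads per Anxa1 read were 3.37 in the control library (3.25 to 3.49) against 3.19 in the senescent library (3.09 to 3.30), a log2 change of -0.08 (-0.15 to -0.01). Adding the reads of the near-identical copies gave 3.37 and 3.20. The balance of this pair thus lay slightly lower in the senescent library, by an interval that ends close to 0. Per Anxa2 read, Anxa1 had 0.0996 reads in the control library against 0.0686 in the senescent library.

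Anxa5 and Anxa6 are phospholipid binders that assemble on exposed phosphatidylserine and at membrane wounds, and they are the members with a negative ratio whose intervals lay below 0 under each scaling tried. Anxa5 (ENSMUSG00000027712, chr3:36448923-36475894, minus strand), the protein used as a dye for dying cells, had 15708 reads in the control library against 11440 in the senescent library. Its log2 ratio was -0.23 with an interval of -0.26 to -0.19, and 36.7% of the genes tested had a lower ratio. Anxa6 (ENSMUSG00000018340, chr11:54979108-55033445, minus strand) carries a duplicated annexin core, and its coding sequence of 2019 bases exceeds the 957 bases of Anxa4 and Anxa5 and the 1455 bases of Anxa7. Anxa6 is known for its part in late endosomes and cholesterol transport, and it had the fewest reads of the members in both libraries.

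The Anxa6 ratio was -1.75 with an interval of -1.90 to -1.60, and 4.27% of the genes tested had a lower ratio. Anxa6 took 0.00628% of the control reads (0.00599% to 0.00658%) against 0.00173% of the senescent reads (0.00158% to 0.00190%). Per Anxa5 read there were 0.112 Anxa6 reads in the control library (0.107 to 0.118) against 0.0390 in the senescent library (0.0354 to 0.0429). The lower Anxa6 count was therefore not shared by Anxa5 in equal measure.

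Anxa7 (ENSMUSG00000021814, chr14:20455260-20480133, minus strand), or synexin, promotes fusion of secretory granules and binds the EF-hand proteins sorcin (Sri) and Pdcd6. It had 4286 reads in the control library against 6293 in the senescent library, which gave a log2 ratio of 0.78 with an interval of 0.73 to 0.84, and 91.1% of the genes tested had a lower ratio. Of its binding partners, Sri had 3639 and 2321 reads, a ratio of -0.42, and Pdcd6 had 2315 and 3480 reads, a ratio of 0.82. Pdcd6 and Sri thus lay on opposite sides of 0 while Anxa7 lay with Pdcd6.

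Anxa3 and Anxa4 had ratios near 0. Anxa3 (ENSMUSG00000029484, chr5:96793339-96845966, plus strand), described as an inhibitor of phospholipase A2, had 16690 reads in the control library against 15597 in the senescent library. Its log2 ratio of 0.13 (0.10 to 0.16) became 0.02 with an interval that held 0 under scaling to total counts. Anxa4 (ENSMUSG00000029994, chr6:86736840-86793584, minus strand), an annexin of secretory and bile duct epithelia, had 38333 and 32759 reads. Its ratio of 0.00 (-0.02 to 0.02) turned to -0.10 with total counts and -0.04 with the upper quartile, so no direction is given for Anxa4.

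Levels can be compared between genes only per length, and here they are reads per 1000000 counted reads and per kilobase of merged exon (RPKM). S100a6 had the highest level of the members in both libraries, 1008 RPKM in the control library against 1706 in the senescent library. S100a11 followed with 948 and 1117 RPKM. Both are among the most abundant RNAs of these cells: of 14278 genes with a length, S100a6 ranked 20 in the control library against 11 in the senescent library, and S100a11 ranked 24 and 19.

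Anxa2 had 387 RPKM in the control library (interval 383 to 391) against 698 in the senescent library (693 to 704). S100a10 had 380 RPKM (374 to 387) in the control library against 768 (758 to 777) in the senescent library. By merged exon length, the levels of these partners did not differ beyond counting error in the control library, where they were the only neighbours in the order of members with overlapping intervals, and S100a10 was above Anxa2 in the senescent library. By the length of the longest transcript, S100a10 was above Anxa2 in both, at 673 and 634 RPKM in the control library.

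Below them in the control library came Anxa5 at 315 RPKM, Anxa4 at 295, Anxa3 at 163, Anxa1 at 49.4, Anxa7 at 25.5 and Anxa6 at 21.4 RPKM. In the senescent library the order was Anxa4 at 274 RPKM, Anxa5 at 250, Anxa3 at 166, Anxa1 at 61.4, Anxa7 at 40.8 and Anxa6 at 5.91 RPKM. By merged exon length, apart from the exchanges of Anxa2 with S100a10 and of Anxa4 with Anxa5, the order of levels was the same in both libraries. The highest level exceeded the lowest 47.0-fold in the control library against 288-fold in the senescent library. The order rests on annotated lengths: with the longest transcript in place of merged exons, 5 of the 10 members kept their place in each library. Neither exchange was then present, Anxa4 lay above Anxa5 in both libraries, and S100a11 had place 2 in the control library and place 4 in the senescent one.

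**Figure D2:**
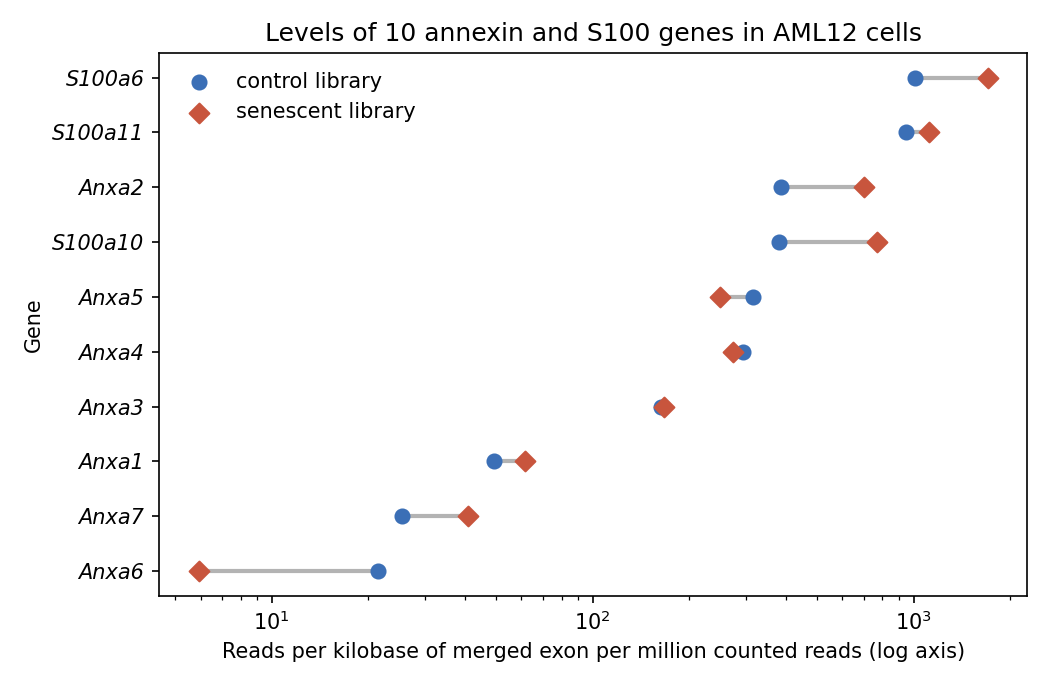
Levels of the 10 members in reads per 1000000 counted reads and per kilobase of merged exon (RPKM, log axis), with 1 point for the control library and 1 for the senescent library of each gene. S100a6 and S100a11 stand highest in both libraries, and Anxa6 stands lowest, at 21.4 RPKM in the control library against 5.91 in the senescent library.

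Together the 10 members took 0.665% of the control reads (186394) against 0.920% of the senescent reads (236852). The annexin family of 12 genes took 0.472% of the control reads against 0.589% of the senescent reads, and the S100 family of 17 matched genes took 0.252% and 0.405%. Of the summed S100 level in RPKM, the members made up 91.5% in the control library against 94.2% in the senescent library. The annexin members made up 83.4% and 83.1% of the summed annexin level. Most of the RNA of either family therefore came from the members.

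Within the families the proportions differed between the libraries. Anxa2 made up 25.7% of the summed annexin level in the control library against 38.8% in the senescent library. Anxa5 made up 20.9% and 13.9%. Of the summed S100 level, S100a10 made up 14.9% in the control library against 20.2% in the senescent library, whereas S100a11 made up 37.1% and 29.3%. Anxa2 was thus the annexin with the largest share of the family level in each library.

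Each of the 5 other annexins was tested, and 2 of them passed a 2-fold difference upward, beside 5.09% of all genes tested and 2.97% of those with at least 1000 reads. Anxa8, an annexin of stratified epithelia, rose from 3705 to 8029 reads, with a log2 ratio of 1.35 (1.29 to 1.40). Anxa10, known from gastric epithelium, rose from 11 to 69 reads, a ratio of 2.76 (1.95 to 3.95). Anxa10 passed the threshold of 1.5 as well, but at 69 reads it adds little to the family sum. Per Anxa2 read, Anxa8 had 0.0915 reads in the control library against 0.120 in the senescent library.

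Anxa13, an annexin of intestinal and kidney epithelium, had 6502 and 4479 reads and a ratio of -0.31 (-0.36 to -0.25). Anxa11, which binds S100a6, had 717 and 723 reads, a ratio of 0.24 (0.09 to 0.39). Gm2260 matches Anxa11 at 100% over 657 bases and Gm2274 at 99.7% over 609 bases, both with 0 reads in each library. Whether reads of these shared stretches were left uncounted is not known from the counts. Anxa9, which has lost its calcium sites, had 102 and 48 reads, a ratio of -0.85 (-1.38 to -0.35), and its exons overlap Mindy1 on the opposite strand and, over 94 bases, 6330562C20Rik (39 and 32 reads) on the same strand. The median of the 5 other annexins was 0.24.

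**Figure D3:**
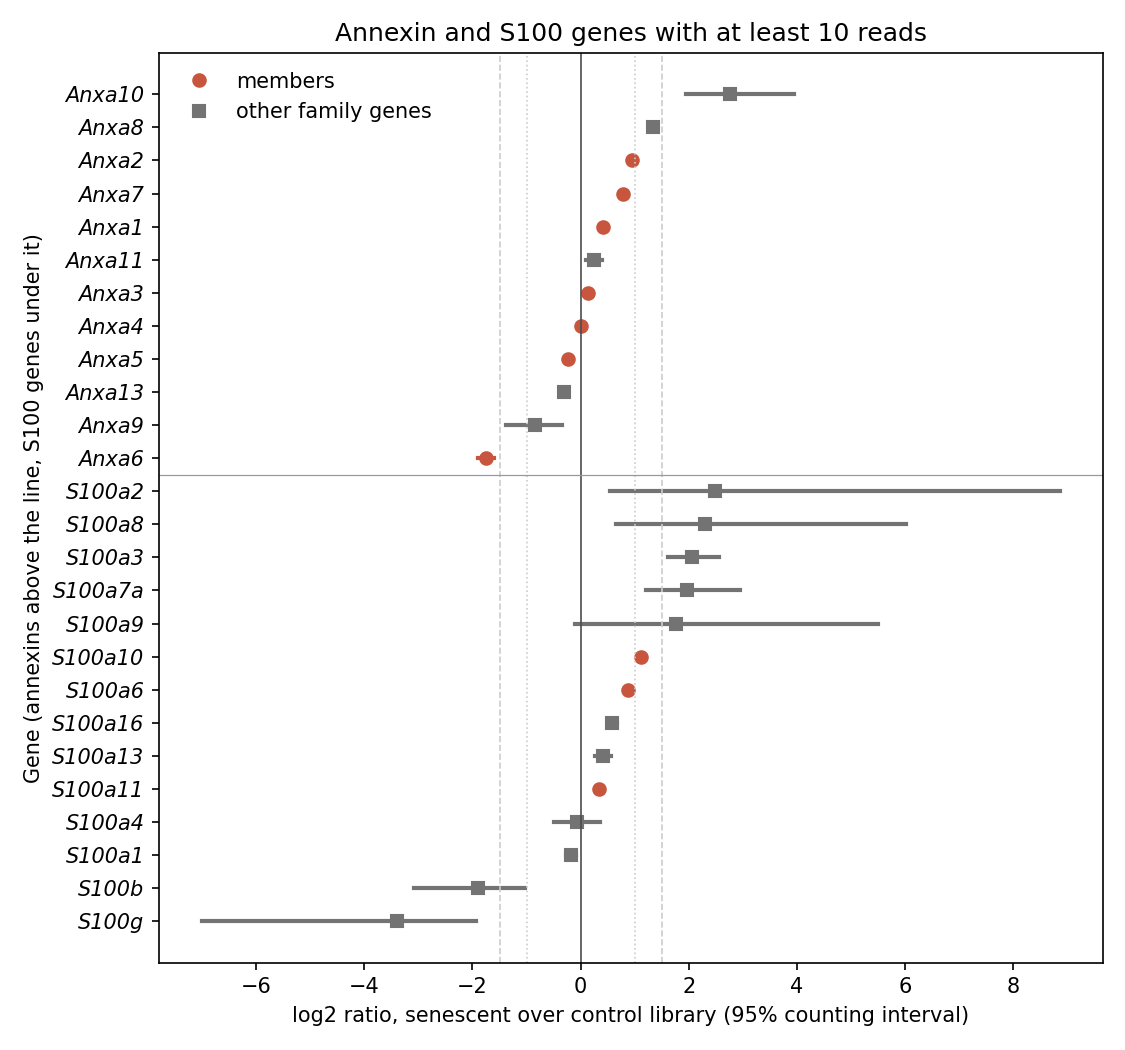
The log2 ratio of senescent over control after TMM scaling for each annexin and S100 gene with at least 10 reads over both libraries, with bars for the 95% counting interval, dotted lines at -1 and 1 and dashed lines at -1.5 and 1.5. Anxa10 and Anxa8 are the annexins with the highest ratios, S100g at -3.40 has the lowest ratio of the S100 genes with an interval down to -7.00, and Anxa4 has a sign that changes under the other scalings.

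Of the 14 other S100 genes on the list, 13 were matched and 10 were tested, and the median of those 10 was 0.50. By the threshold of 1.5, 3 were higher and 2 were lower, beside 2.71% and 5.60% of all genes tested, and the counts at the threshold of 1 were the same, beside 5.09% and 9.98%. These 5 genes had few reads, at most 176 in a library, so they differ in depth from the members. S100a3, a gene of the hair cuticle, rose from 49 to 176 reads, a ratio of 2.05 (1.61 to 2.56), and its annotated span contains S100a2 and overlaps Gm42674. S100a7a rose from 16 to 56 reads, a ratio of 1.97 (1.21 to 2.94), and shares a repeated stretch with 49 other genes.

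S100a8, which pairs with S100a9 in the calprotectin of neutrophils, had 2 and 12 reads, a ratio of 2.30 with an interval of 0.65 to 6.02. S100a9 had 2 and 8 reads, a ratio of 1.76 with an interval of -0.10 to 5.50 that holds 0. Both were within the floor of 3 reads in the control library, and the wide intervals reflect this. The 9 neutrophil markers, which include S100a8 and S100a9, had 7 reads in the control library against 25 in the senescent library (0.250 and 0.971 CPM), and the 7 markers other than these S100 genes had 3 and 5 reads. S100a8 had the most reads of the list over both libraries, and the defining genes Ly6g, Mpo, Elane, Camp and Ngp were at 0 in both libraries.

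S100b, a protein of glia and some epithelia, fell from 51 to 11 reads, a ratio of -1.90 (-3.07 to -1.03). S100g, the calcium carrier calbindin of the gut, fell from 35 to 2 reads, a ratio of -3.40 (-7.00 to -1.94). S100a4, associated with migrating mesenchymal cells, had 106 and 86 reads, and its ratio of -0.07 had an interval of -0.50 to 0.35. It shares 302 exon bases with Gm42674 on the same strand. A direction for S100a4 was not detectable at this depth.

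The S100 genes outside the members with more reads had smaller ratios. S100a1, best known from muscle, had 2536 and 1915 reads and a ratio of -0.18 (-0.26 to -0.09). S100a16 had 1899 and 2434 reads, a ratio of 0.59 (0.50 to 0.68), and S100a13, which aids the release of fibroblast growth factor, had 680 and 774 reads, a ratio of 0.42 (0.27 to 0.57). S100a14 had 3 and 4 reads and was not tested. S100a5 and S100z were at 0 reads in both libraries, and S100a7l2 was not matched. S100a2, which was not on the list, had 1 and 9 reads, a ratio of 2.48 with an interval of 0.55 to 8.85.

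All 3 S100 members belong to a run of 14 S100 genes on chromosome 3, the part of the genome known as the epidermal differentiation complex. Between the first of these genes, S100a1, and S100a10 at the far end, the run covers chr3:90511034-93564643. In and beside it lie 22 tested genes, of which 12 are S100 genes, and the other 10 had a median log2 ratio of 0.22, with Lce6a, which was at 0 in the senescent library, taken at its bound. S100a11 and S100a10 are 28792 bases apart, while S100a6 lies in the group at the other end. Genes of the cornified envelope lie between these groups: Sprr1a had 678 and 3053 reads, a ratio of 2.40 (2.28 to 2.52), and involucrin (Ivl) had 397 and 740 reads, a ratio of 1.13 (0.95 to 1.31). In the same stretch Lce6a had 33 and 0 reads and was at least 9.38-fold lower, Sprr2g had 24 and 5 reads, a ratio of -1.85 (-3.78 to -0.61), and loricrin (Lor) had 6 and 6 reads. These 5 genes were named after their values were seen. Sprr1a and Ivl were higher, Lce6a and Sprr2g were lower, and the interval of Lor (-1.67 to 2.13) held 0. Ratios along the run had both signs, and its neighbouring genes S100a1 and S100a13 lay at -0.18 and 0.42.

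**Figure D4:**
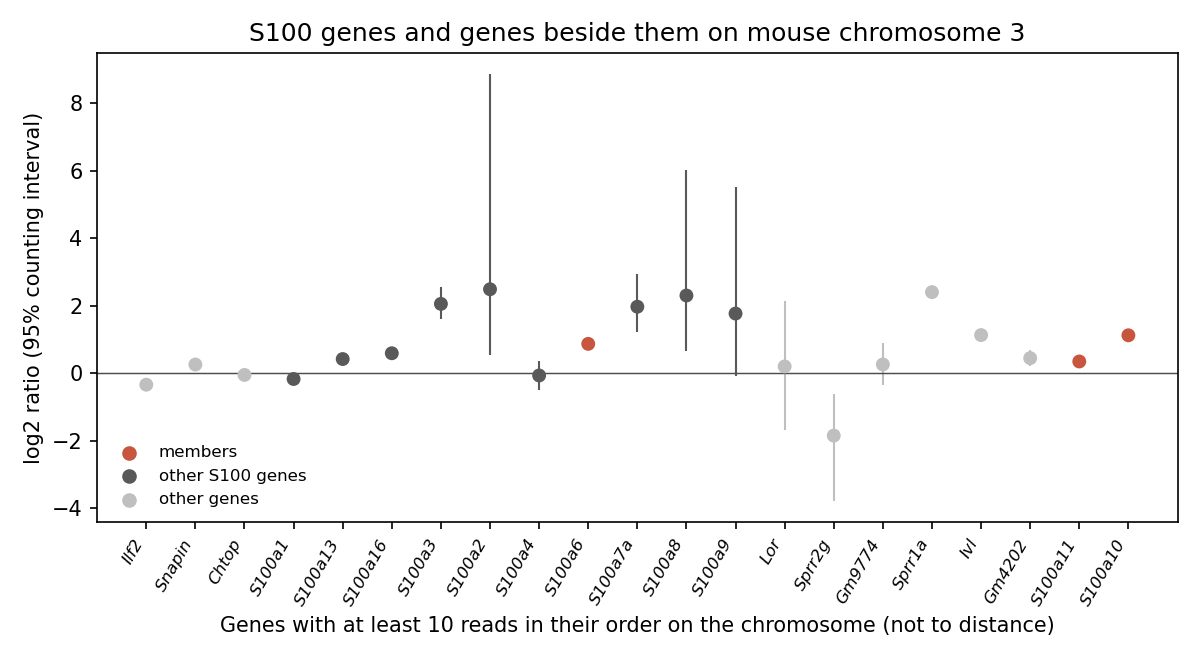
The log2 ratio of senescent over control after TMM scaling for tested genes of the S100 run on chromosome 3, in chromosome order, with bars for the 95% counting interval, S100 genes and other genes being marked apart, and genes at 0 in a library not drawn. Sprr1a at 2.40 and S100a10 at 1.12 stand above S100a11 at 0.34, which lies between them in the order, and Sprr2g at -1.85 is the lowest of the genes drawn.

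Promoter sequence was taken from RefSeq on GRCm38.p6 for the 250 bases before each annotated start, and 7 of the 10 members had an entry, with 9 start sites. Entries for Anxa3, Anxa6 and S100a10 were missing. The stretches before Anxa2, S100a6 and S100a11 are shown because these abundant genes stand for the annexin and S100 members with positive ratios and differ in their motifs. They end before the first base of the gene, so that 187 bases are given for Anxa2 (chr9:69453433-69453619), 238 for S100a6 (chr3:90612644-90612881) and 242 for S100a11 (chr3:93520246-93520487), each on the plus strand from 5′ to 3′. Capitals mark matches to any of 3 motifs, read on both strands: the AP-1 motif TGANTCA, the TATA box TATAAA and the GC box GGGCGG.
Anxa2: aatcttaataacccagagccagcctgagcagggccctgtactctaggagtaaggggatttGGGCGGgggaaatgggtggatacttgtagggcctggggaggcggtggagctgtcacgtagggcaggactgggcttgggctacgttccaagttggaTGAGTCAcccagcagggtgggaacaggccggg
S100a6: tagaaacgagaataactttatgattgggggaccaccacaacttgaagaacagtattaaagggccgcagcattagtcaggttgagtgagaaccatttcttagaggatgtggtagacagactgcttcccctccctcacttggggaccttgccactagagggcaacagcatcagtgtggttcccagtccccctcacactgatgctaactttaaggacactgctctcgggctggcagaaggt
S100a11: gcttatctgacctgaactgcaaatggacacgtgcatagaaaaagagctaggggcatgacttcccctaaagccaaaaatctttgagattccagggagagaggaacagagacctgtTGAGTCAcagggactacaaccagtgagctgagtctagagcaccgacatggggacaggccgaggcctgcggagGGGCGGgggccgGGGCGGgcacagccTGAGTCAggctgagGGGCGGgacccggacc

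Over 32851 promoters of the same length, the AP-1 motif was held by 6.75%, the TATA box by 12.4% and the GC box by 32.7%. Of the 7 members with an entry, AP-1 letters were found in 2 (Anxa2 and S100a11), TATA letters in 2 (Anxa1 and Anxa2) and GC box letters in 3 (Anxa2, Anxa7 and S100a11). The AP-1 match of Anxa2 lies 95 bases before the start, and those of S100a11 lie 136 and 38 bases before it. The TATA match of Anxa2, at 17 bases, and its GC boxes at 48 and 24 bases lie past the end of the stretch shown. S100a6 held none of the 3 motifs in this window. A match is a description of letters, not of binding.

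Around the members, 8 further lists of genes were read by the same rule. Among 16 genes whose products bind the members, 11 were tested, 1 was higher and 0 were lower by the threshold of 1.5 (2.71% and 5.60% of all genes tested), and the median was 0.34. Plasminogen (Plg), which binds the Anxa2 complex, rose from 0 reads to 18 reads and was at least 7.04-fold higher, taking 3 reads as the floor for 0. Ahnak, the giant scaffold that S100a10 and Anxa2 hold at the membrane, had 43484 and 103384 reads and a ratio of 1.48 with a lower bound of 1.46. It was named after its values were seen, as the gene with the most reads on that list. Kcnk3 and Trpv6, channels that S100a10 carries to the surface, were at 0 reads in both libraries.

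Receptors of extracellular annexin A1 and S100 proteins differed widely in their reads. The formyl peptide receptors Fpr1, Fpr2 and Fpr3 were at 0 reads in both libraries. Of the 6 listed receptor genes, 3 were tested, with a median of -0.20 and 0 past either threshold. Of all genes tested, 2.71% were higher and 5.60% lower past 1.5, and 5.09% and 9.98% past 1. So that each tested gene of this list is given, Ager had 23 and 17 reads, and Tlr4 had 15 and 17 reads. Basigin (Bsg), a surface receptor for S100 proteins, had 21218 and 11723 reads and a ratio of -0.63 (-0.66 to -0.59). RNA for the receptors of Anxa1 was thus not detectable at this depth, and 3 reads of the total would be 1.07e-05% of the control library, or 1.17e-05% of the senescent one.

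The Anxa2 complex binds plasminogen and its activator at the cell surface, and the plasmin system was therefore listed. Of 9 genes, 8 were tested, 2 were higher and 0 lower by the threshold of 1.5, beside 2.71% and 5.60% of all genes tested, and the median was 0.10. The urokinase receptor Plaur rose from 2425 to 8004 reads, a ratio of 1.95 (1.89 to 2.02), and Plg was the other gene. The inhibitor gene Serpinb2 was at 0 and 2 reads, within the floor.

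Of 27 genes of plasma membrane repair, in which annexins form a cap on the wound, 25 were tested, with a median of 0.33. By the threshold of 1.5, 1 was higher and 1 lower (2.71% and 5.60% of all genes tested), and by the threshold of 1, 4 were higher and 1 lower (5.09% and 9.98%). Trim72, a repair protein of muscle, had 3 and 10 reads, a ratio of 1.65 with an interval of 0.01 to 4.47. Cavin3, a coat protein of caveolae, fell from 103 to 16 reads, a ratio of -2.39 (-3.32 to -1.69). The ferlin Myof rose from 24442 to 48746 reads, a ratio of 1.23 (1.20 to 1.25), the dynamin-like Ehd1 had a ratio of 1.05 (1.00 to 1.10) and the calcium sensor Syt7 a ratio of 1.37 (1.16 to 1.60). Myof, Ehd1 and Syt7 were named after their values were seen. Cav3 was at 0 in both libraries and dysferlin (Dysf) had 1 and 0 reads, so neither was detectable at this depth.

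Of 21 other EF-hand calcium proteins, 17 were tested, and the median was 0.11. Past 1.5 in either direction were 0, beside 2.71% higher and 5.60% lower of all genes tested. Nucleobindin 2 (Nucb2) fell from 1427 to 520 reads, a ratio of -1.23 (-1.37 to -1.08), and was the 1 gene of 17 past 1, beside 9.98% of all genes tested that were lower. Next in size were Capn2 at 0.95 and Pdcd6 at 0.82. Rcn1 and Rcn3 were at 0 in both libraries, and Tesc had 1 and 1 reads. The S100 members, with a median of 0.87, lay above the median of these other EF-hand genes.

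Of 18 phospholipid binders with C2 domains, another fold that docks on membranes with calcium, 12 were tested and the median was 0.16. By the threshold of 1.5, 1 was higher and 1 was lower, beside 2.71% and 5.60% of all genes tested. Cpne9 was the higher one, at 5 and 38 reads and a ratio of 2.91 (1.81 to 4.86). Syt1 was the lower one, at 209 and 23 reads and a ratio of -2.91 (-3.64 to -2.33). By the threshold of 1, 3 were higher and 1 was lower, beside 5.09% and 9.98% of all genes tested. Syt17 was at 0 in both libraries, and 5 genes of the list, Syt17 among them, were within the floor in both.

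All 25 genes of the actin cortex, which annexins link to the membrane, were tested, with a median of 0.13. Filamin C (Flnc) rose from 1351 to 5921 reads, a ratio of 2.36 (2.28 to 2.45), and Myl9, a myosin light chain of smooth muscle, fell from 14 reads to 0 and was at least 3.98-fold lower. By the threshold of 1, 2 were higher and 2 were lower of the 25, near the 5.09% and 9.98% of all genes tested. The list was therefore split between directions, and the gene of the list with the most reads, Actb, had 66222 and 57839 reads and a ratio of 0.03 (0.02 to 0.05).

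Anxa1 is a glucocorticoid target and dexamethasone was in the medium of both groups, so genes raised by glucocorticoids were listed too. Of 11, 10 were tested, and their median was -0.30. By the threshold of 1.5, 0 were higher and 2 lower, where 2.71% and 5.60% of all genes tested were, and by the threshold of 1, 0 were higher and 3 lower, where 5.09% and 9.98% were. Ddit4 fell from 11394 to 2096 reads, a ratio of -2.21 (-2.28 to -2.15), and Dusp1 fell from 1684 to 464 reads, a ratio of -1.63 (-1.78 to -1.48). Fkbp5, with the most reads of the list over both libraries, had 15461 and 17519 reads and a ratio of 0.41 (0.38 to 0.44), beside 0.42 for Anxa1.

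**Figure D5:**
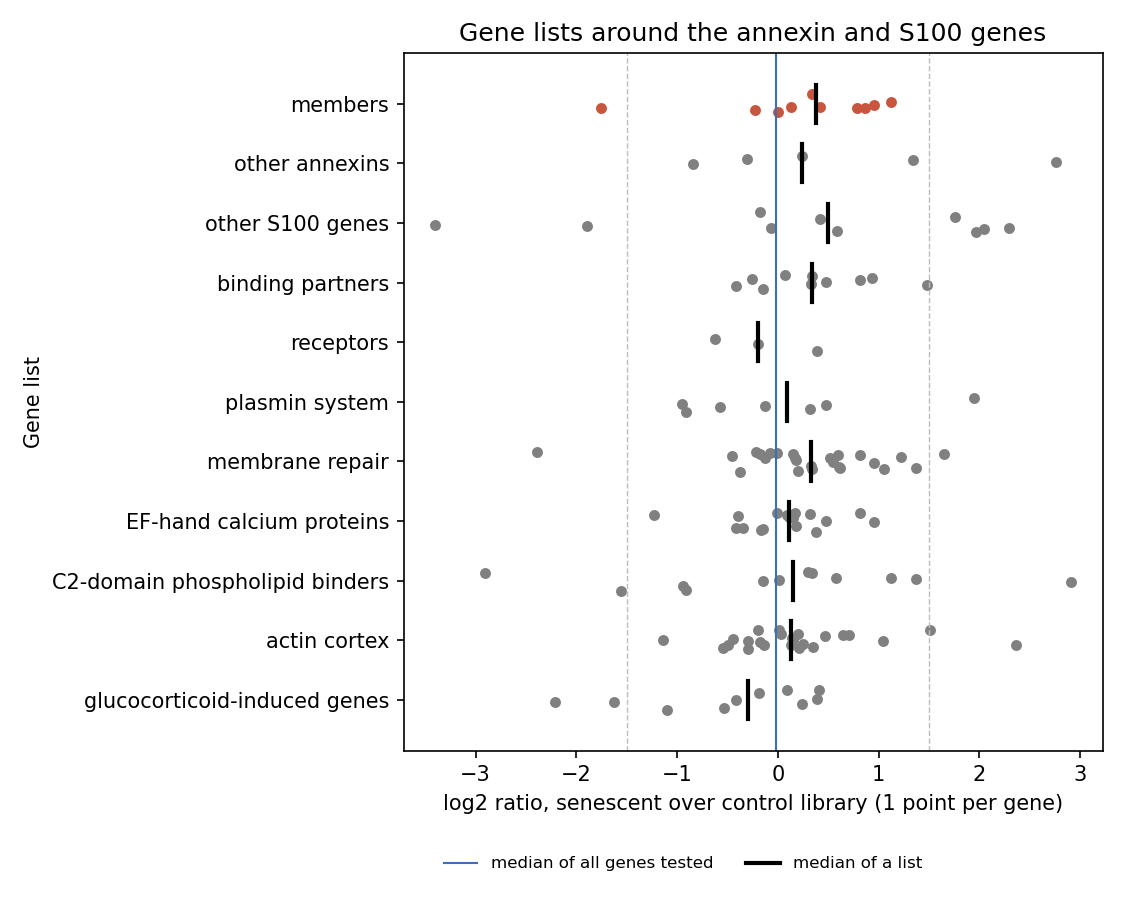
The log2 ratio of senescent over control after TMM scaling for each tested gene (1 point per gene) of the members, the other annexins, the other S100 genes and 8 further lists, with the median of each list marked and genes at 0 in a library not drawn. Medians run from -0.30 for glucocorticoid-induced genes to 0.50 for the other S100 genes, with 0.38 for the members and -0.02 for all genes tested, and Anxa4, a member at 0.00, changes sign under the other scalings.

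The labelled cell type was read from its markers. Of 16 hepatocyte markers 15 were matched, with 88555 reads in the control library against 47299 in the senescent library (3160 and 1838 CPM), and 13 were tested. Of these, 4 were higher and 2 lower by the threshold of 1.5 (2.71% and 5.60% of all genes tested), and 4 were higher and 4 lower by the threshold of 1 (5.09% and 9.98%), the added ones being Apoh (144 and 57 reads) and Serpina1a (102 and 32). Albumin (Alb) fell from 32076 to 2917 reads, a ratio of -3.23, and apolipoprotein A1 (Apoa1) fell from 2026 to 197 reads, a ratio of -3.13. Higher past 1.5, at few reads, were Fga (8 and 34 reads, 2.17), Serpina1c (4 and 14, 1.78), Cps1 (19 and 55, 1.71) and Cyp2e1 (0 and 50), and the median of the list was 0.14. Apob, with the most reads over both libraries together, had 22158 and 25094 reads and a ratio of 0.41, and the transcription factor Hnf4a had 8187 and 7705 reads. Hepatocyte genes were therefore present, although the asialoglycoprotein receptor Asgr1 had 2 and 1 reads.

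Markers of bile duct or progenitor cells had a like summed level, 85196 reads in the control library against 55876 in the senescent library (3040 and 2171 CPM) over 9 genes. Cd24a had the most reads of them over both libraries, 27171 and 19186, and Krt19 had 22885 and 19177 reads. Epcam was at 0 and 1 reads, and Cldn7 was at 0 in both libraries. The lower sums rest on a few genes with many reads, Alb and Ttr (23146 and 10486 reads) among hepatocyte markers and Spp1 (25430 and 10580 reads) among bile duct markers, whereas Sox9 had 3602 and 4454 reads. The part of either set in the ratios of the members was not tested.

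Other cell types of the liver left few reads. The 11 macrophage markers had 77 reads in the control library against 158 in the senescent library, with the most over both libraries in Ptprc (27 and 76), and with Adgre1, Clec4f, Marco, C1qa, C1qb and Tyrobp at 0 in both. The 11 markers of fibroblasts or stellate cells had 30 and 26 reads, with the most over both libraries in Col1a1 (21 and 1), and with Col1a2, Col3a1, Lum and Thy1 at 0. The 8 endothelial markers had 14 and 38 reads, with the most in Vwf (8 and 24), and with Emcn at 0. Each of these lists thus held defining genes at 0 in both libraries, and any part of such cells in the ratios of the members was not tested.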

How the data were processed

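RNAseq of 1 control and 1 senescent AML12 library was used, each library from RNA of 3 pooled samples. The deposited table held raw read counts per Ensembl gene, with no normalization by the authors. The submitters' processing notes name CASAVA, STAR, edgeR, DESeq2 and mm10 without version or role. The counting tool, annotation and strand setting are not given in the sources used here. Columns were assigned to groups by their initials, which follow the labels young and old, and 0 columns went unused.

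Gene identifiers were matched to GENCODE M21 symbols, which succeeded for 34490 of 35275 genes. Libraries were scaled by TMM over all genes (edgeR 4.0.16 in R 4.3.3). Log2 ratios used a prior count of 1 in proportion to library size, for genes with at least 10 reads over both libraries, and 95% Clopper-Pearson intervals (scipy 1.17.1). Tables and plots were made with Python 3.11.15, numpy 2.4.6, pandas 2.3.3 and matplotlib 3.10.9. A gene at 0 reads in a library was given a bound from a floor of 3 reads. Near-identical copies were sought with blastn 2.17.0 at 95% identity over at least 100 bases. Ratio and call steps were tested on simulated data.

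Alternatives were total counts, DESeq2 1.42.0 size factors and the upper quartile as scaling, minimums of 1 and 100 reads, prior counts of 0.125 and 5, intervals widened for a biological coefficient of variation of 0.1 or 0.4, longest transcripts as length and the addition of copies. No test is possible with 1 library per group. Members and lists were chosen with earlier results of these data known. Named were all members, all other annexin and S100 genes, genes of further lists past 1.5 (or, with none, up to 4 with the largest ratio among those with at least 100 reads) and defining genes of a list within the floor. A planned comparison of protein sequences was not done.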

Additional observations from a re-analysis of the deposited data

How the results depend on the processing

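The direction of 9 of the 10 members was the same under each scaling, read minimum and prior count tried, and that of Anxa4 was not. Scaling to total counts moved the median log2 ratio of the members to 0.2753, and with it 9 member ratios moved past their counting intervals, as did 7 with the upper quartile and 0 with DESeq2 size factors. With intervals that allow for a biological coefficient of variation of 0.4, 0 members were higher past 1, and 1 of 10 intervals (Anxa6) lay clear of 0, as against 6 of 10 at 0.1. Longest transcripts in place of merged exons left 5 of 10 members at the same place in the order of levels in the control library and 5 of 10 in the senescent library. The ratio of S100a11 to Anxa1 reads was within its interval with copies added. No paired analysis was possible because each group has 1 library. Depth limits the S100 genes with few reads, such as S100a8, S100a9 and S100g, more than the members, and the spread between cultures is not known from these data.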
